A study of Homo sapiens with 12 samples.

Results

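The replication-dependent histone genes supply the bulk of the H1, H2A, H2B, H3 and H4 proteins that package newly copied DNA, and most of them lie in clusters of short genes without introns. Their level was read in RNA from SH-SY5Y on 12 Affymetrix arrays of the 3′ kind. SH-SY5Y is a line of human neuroblastoma cells widely used as a model of neurons. A gene was counted as a member when its only annotated symbol began with H1-, H2AC, H2BC, H3C or H4C and a number, or had the older HIST form, and each gene was read from its brightest probe set by the mean over the 12 arrays. By this rule 50 of 19775 genes with a single-symbol probe set were members, read by 58 probe sets: 11 of type H1, 9 of H2A, 14 of H2B, 7 of H3 and 9 of H4. Each of 4 groups had 3 arrays: cells given oligomeric amyloid-β (Aβ, the peptide of Alzheimer plaques) with a 6 h incubation, a control of 6 h, cells given fibrillar Aβ with a 24 h incubation, and a control of 24 h. The aggregate form and the hours changed together, so their effects cannot be told apart, and the labels leave unsaid whether the incubation applied to the peptide or to the cells. The labels also name no separate cultures, so each p-value rests on the spread between arrays, which may be technical.

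The core histones H2A, H2B, H3 and H4 form the protein spool of the nucleosome, and linker histone H1 binds the DNA where it enters and leaves. Transcription of the clustered genes peaks in S phase, when NPAT, a coactivator phosphorylated by cyclin E and CDK2, acts at the clusters. The messenger RNA ends in a stem-loop, bound by the protein SLBP and cut with the help of the U7 small nuclear ribonucleoprotein, in place of a poly(A) tail, and it is broken down when DNA synthesis stops. Replacement histones, by contrast, are made throughout the cell cycle from polyadenylated messages, and some clustered genes also give polyadenylated transcripts. The labels do not state how the cDNA was primed, so it is not known here how well each kind of message was copied.

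The symbol rule also took in genes that are not classical cluster members. H1-10 is a replacement-type linker histone, H2BC12L lies outside the clusters, H1-10-AS1 is a long non-coding RNA, and H1-9P, H2AC5P and H4C10P are pseudogenes by name. By annotation 46 members were protein coding. RefSeq promoters (GRCh38.p14) were matched by symbol for 43 members, of which 38 lie on chromosome 6, 2 on chromosome 1, 2 on chromosome 3 and 1 on chromosome 12.

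The promoters of 4 members are printed because these genes carry the comparisons that follow: H1-10 was the only member to pass a test, H2AC17 and H1-2 were members whose groups of arrays stood fully apart, and H2AC6 shares the stretch between its own start and that of H2BC4. Each line gives the 200 bases that end at the transcript's start, 5′ to 3′ on the gene's own strand, from RefSeq. Capitals mark matches on either strand to 4 promoter motifs: the box spelled CCAAT, the TATA box, searched as TATAAA, the octamer motif's core, searched as TTTGCAT, and the H1 box, searched as AAACACA.
H2AC17, chr6:27893186-27893385, minus strand: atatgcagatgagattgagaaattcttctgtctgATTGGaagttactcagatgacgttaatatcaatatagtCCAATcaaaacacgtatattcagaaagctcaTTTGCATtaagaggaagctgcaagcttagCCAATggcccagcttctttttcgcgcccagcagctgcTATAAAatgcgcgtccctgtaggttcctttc
H2AC6, chr6:26123972-26124171, plus strand: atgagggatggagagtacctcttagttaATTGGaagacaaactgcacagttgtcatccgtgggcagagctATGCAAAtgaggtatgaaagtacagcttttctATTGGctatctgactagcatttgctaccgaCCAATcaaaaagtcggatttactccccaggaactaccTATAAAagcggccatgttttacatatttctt
H1-2, chr6:26056471-26056670, minus strand: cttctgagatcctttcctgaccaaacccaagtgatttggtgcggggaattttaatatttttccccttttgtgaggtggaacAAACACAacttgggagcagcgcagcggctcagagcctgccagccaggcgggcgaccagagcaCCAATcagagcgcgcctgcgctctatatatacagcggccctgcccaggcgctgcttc
H1-10, chr3:129316287-129316486, minus strand: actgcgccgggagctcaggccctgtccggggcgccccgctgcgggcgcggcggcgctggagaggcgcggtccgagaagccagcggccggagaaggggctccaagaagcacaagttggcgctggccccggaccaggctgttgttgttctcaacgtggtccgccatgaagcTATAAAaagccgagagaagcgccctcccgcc

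The H2AC17 and H2AC6 sequences each hold 3 CCAAT matches, 1 octamer core and 1 TATA box. H2AC6 and H2BC4 are transcribed away from each other with 245 bases between their starts, so the H2AC6 sequence is also upstream of H2BC4. The H1-2 sequence holds 1 H1 box and 1 CCAAT match. The H1-10 sequence, outside the clusters, holds a TATA box alone.

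In the 250 bases before the start, CCAAT was found in 37 of the 43 matched members and in 33% of 27305 RefSeq promoters. TATAAA was found in 28 members and 11.1% of all promoters. TTTGCAT was found in 16 members, 6 of 8 H2A and 10 of 13 H2B genes, and in 0 of the 9 H1, 6 H3 and 7 H4 promoters, against 3.98% of all promoters. AAACACA was found in 7 members, all of them among the 9 H1 genes, against 4.95% of all. CCAAT was found in 2 of 7 H4 promoters and in 8 of 9 of type H1. Both strands were searched and overlapping matches of different motifs were each counted. A match describes these letters and is neither a binding site nor a cause of any value.

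Most members were too dim to test. The filter kept probe sets with a mean at or above the median of the arrays, a log2 signal of 3.78 (13.8 on the linear scale), and 15 of the 50 members passed it, or 30%, against 59.5% of all 19775 genes. They were 2 of the H1, 4 of the H2A, 7 of the H2B, 1 of the H3 and 1 of the H4 genes. Just inside the filter were H2AC17 with a mean of 3.94 and H2BC4 with 4.04, and just outside were H2AC8 with 3.59 and H3C2 with 3.51. The 35 members below it had means from −0.63 to 3.59 and ranged over the 12 arrays by 1.06 to 5.61, with a median range of 4.26. The 15 tested members ranged by 0.39 to 1.32, with a median of 0.90, against 0.67 for all genes tested. Of the 15, 8 were read by a probe set that carries the manufacturer's mark of a possible cross-hybridization, so near-identical histone messages may share their signal.

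**Figure D1:**
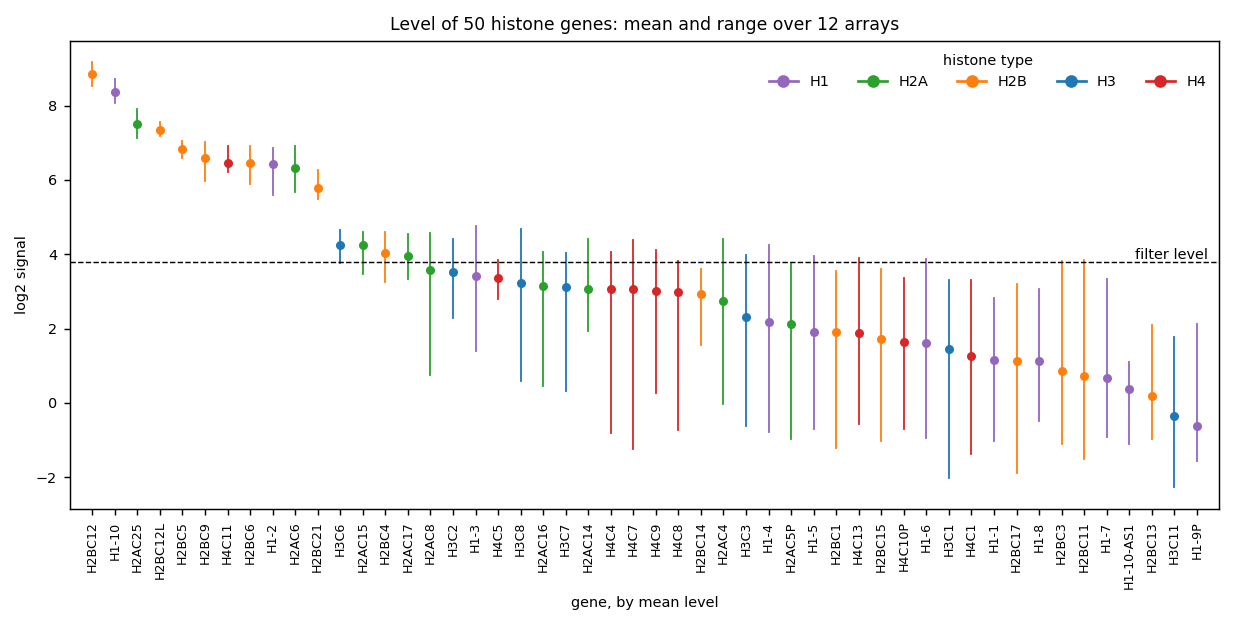
The mean log2 signal of each of the 50 histone genes over 12 arrays (points, y axis) with its lowest and highest array (lines), coloured by histone type, and the filter level of 3.78 (dashed). The 15 genes above the dashed line have ranges of at most 1.32, while those below it range by up to 5.61, and the order of the genes is for display because levels of different probe sets cannot be set against each other.

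The comparison of oligomeric Aβ with its control at 6 h asked whether the soluble aggregates altered histone messages. With limma, 0 of the 15 tested members passed an adjusted p of 0.05, where 0% of all 11774 genes tested did, and 0 members had an unadjusted p below 0.05, against 2.78% of all genes. Each member had an adjusted p of 1. The changes ran from −0.22 for H3C6 to 0.68 for H2BC4 on the log2 scale, with 8 means higher and 7 lower. Their median was 0.08, against −0.0046 for all genes tested. The groups of arrays did not overlap for 2 members, H2AC17 and H2BC6, both higher with oligomers, while 3.6% of all genes tested were higher without overlap and 7.36% did not overlap in either direction. The SE of a member's change between groups was 0.09 to 0.38 with a median of 0.20. Larger changes than the SE could also go uncalled with 3 arrays a group, as −0.87 (SE 0.34) did for H2AC17 with fibrils. Only shifts well above the SE could therefore be resolved.

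Fibrillar Aβ was compared with its control at 24 h to put that question to the insoluble aggregates. Here 0 of 15 members passed with limma, where 1.19% of all genes did, and 1 member, H2AC17, had an unadjusted p below 0.05, as did 14.2% of all genes. The means of 12 members were lower with fibrils and those of 3 were higher, or 10 and 5 with each array centred on its median. The changes ran from −0.87 for H2AC17 to 0.29 for H2BC21, with a median of −0.17 against −0.000527 for all genes tested. For 2 members, H2AC17 and H1-10, every fibril array was below every control array, where 8.73% of all genes were lower without overlap and 19.7% did not overlap in either direction. The pooled SD of the per-array median deviation of the 15 members within groups was 0.11. In RNA from whole cultures, a number of cells in S phase and a level of histone message per cell cannot be told apart.

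The responses to the 2 preparations were then set against each other in the same model. The fibril response less the oligomer response passed for 0 of 15 members, where it did for 0.0425% of all genes, and 2 members, H2AC17 and H2BC4, had an unadjusted p below 0.05, as did 8.53% of all genes. The difference was below 0 for 12 members and above 0 for 3 (9 and 6 with each array centred on its median), with a median of −0.15 against 0.0095 for all genes. After that centring the difference had a median of −0.01 in the members and 0.15 over all genes.

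The controls of 24 h were compared with those of 6 h to see how the genes differed between the control arrays of each time. H1-10 fell, the only 1 of the 15 members to pass the test with limma, where 11.7% of all genes passed and 7.92% fell. An unadjusted p below 0.05 was found for 4 members, H1-10, H1-2, H2AC25 and H2AC6 (26.6% of all genes had one). The means of all 4 tested H2A genes were higher at 24 h, those of both tested H1 genes were lower, and the 7 H2B genes were divided, 4 higher and 3 lower, or 2 and 5 after median centring. These counts for H1 and H2A were the same after quantile normalization and after median centring. Over the 15 members the median change was 0.05, against −0.0163 for all genes. With median centring the members' median was −0.08 and that of all genes −0.15. The groups did not overlap for 4 members, H2AC17 and H2BC4 higher and H1-10 and H1-2 lower, where 13.7% of all genes were higher, 18.9% lower and 32.6% in all without overlap. This comparison shares its control arrays with the treatment comparisons, 6 h with the oligomers and 24 h with the fibrils, so the changes of a gene in them are not independent.

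**Figure D2:**
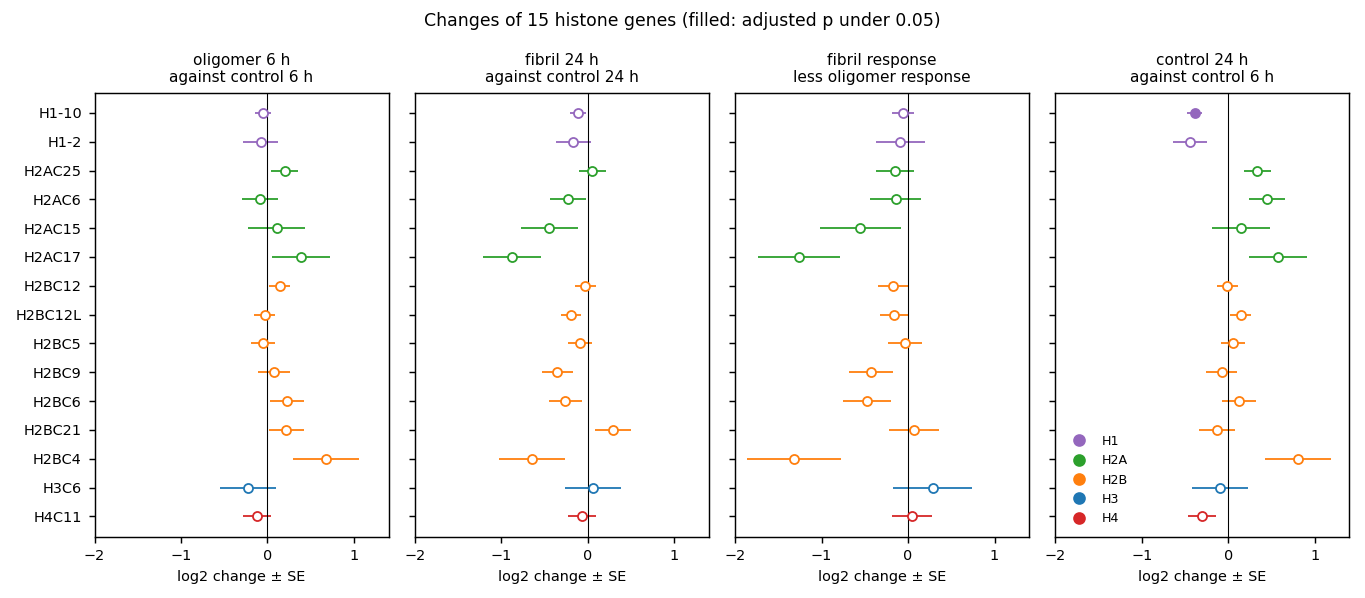
The log2 change of each of the 15 tested histone genes (points, x axis) with its standard error (lines) in the oligomer, fibril, difference and control time comparisons, coloured by histone type. A filled point marks an adjusted p under 0.05, which H1-10 alone reached, at −0.39 in the controls of 24 h against 6 h.

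Among the linker histones, H1-10 (probe set 204805_s_at, cross-hybridization mark) separated the hours. Its log2 signal was 8.61, 8.71 and 8.47 in the 6 h controls, 8.39, 8.64 and 8.60 with oligomers, 8.15, 8.29 and 8.18 in the 24 h controls, and 8.11, 8.11 and 8.07 with fibrils. All 6 arrays of 24 h lay below all 6 arrays of 6 h. Between the controls it fell by 0.39 (SE 0.09, adjusted p = 0.0107 with limma), from a mean of 8.60 ± 0.12 (SD, n = 3) to 8.21 ± 0.07. Without control 6 h replicate 2 the change was −0.33 with an adjusted p of 0.061. It differed by −0.05 (SE 0.09) with oligomers and by −0.11 (SE 0.09, adjusted p = 0.653) with fibrils.

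H1-2 (209398_at), a clustered linker histone gene, had signals of 6.63, 6.62 and 6.86 in the 6 h controls and 6.41, 6.32 and 6.04 in the 24 h controls. The control groups did not overlap, and the change of −0.44 (SE 0.20) did not pass, with an adjusted p of 0.166. With fibrils the arrays read 6.54, 5.59 and 6.16, the widest spread of the 4 groups (SD 0.48), and the change was −0.17 (SE 0.20, adjusted p = 0.779). With oligomers they read 6.67, 6.42 and 6.79, a change of −0.08 (SE 0.20).

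Of the H2A genes, H2AC17 (214481_at) had the largest differences. It read 3.53, 3.97 and 3.85 in the 6 h controls, 4.21, 4.19 and 4.10 with oligomers, 4.42, 4.56 and 4.08 in the 24 h controls, and 3.70, 3.33 and 3.41 with fibrils. The oligomer arrays all lay above their controls and the fibril arrays all below theirs. The change was 0.38 (SE 0.34, adjusted p = 1) with oligomers and −0.87 (SE 0.34, adjusted p = 0.24) with fibrils, and the difference of the responses was −1.26 (SE 0.47, adjusted p = 0.44). Between the controls it was 0.57 (SE 0.34, adjusted p = 0.299), so the 24 h controls that the fibrils were set against were the highest of the 4 groups. Its mean of 3.94 lies just above the filter level of 3.782. The oligomer mean (4.164) and 24 h control mean (4.352) lie above that level, and the 6 h control mean (3.781) and fibril mean (3.478) below it. Each treatment comparison therefore sets a group above the filter level against one below it. With 16 added to each signal before the log, which damps low values, the fibril change was −0.43, the difference of the responses −0.61 and the change between the controls 0.29, none of which passed. A probe set annotated to 6 genes, H2AC17 among them (207156_at, mean 5.50), had the opposite signs. It differed by −0.19 (SE 0.22) with oligomers and 0.34 (SE 0.22) with fibrils. Its difference of the responses was 0.53 (SE 0.31), and none of these passed.

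H2AC6 (215071_s_at) is read by a probe set with the cross-hybridization mark. It read 6.38, 5.95 and 6.24 in the 6 h controls and 6.93, 6.29 and 6.70 in the 24 h controls, overlapping at the 6.29 array, a change of 0.45 (SE 0.21, adjusted p = 0.178). With the replicate number as a block in limma the adjusted p was 0.042, though the labels name no pairs. The fibril arrays read 6.50, 6.14 and 6.60 and overlapped their controls, with a change of −0.23 (SE 0.21). In the oligomer arrays, at 6.42, 5.69 and 6.21, the change was −0.08 (SE 0.21).

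H2AC25 (221582_at) lies on chromosome 1, apart from the large cluster. Its signals were 7.51, 7.22 and 7.13 in the 6 h controls and 7.92, 7.46 and 7.47 in the 24 h controls, a change of 0.33 (SE 0.16, adjusted p = 0.184) that was 0.18 without the 7.92 array. The fibril arrays lay close together at 7.66, 7.68 and 7.67, within the range of their controls. With oligomers the mean was 7.48 ± 0.32 (n = 3), a change of 0.20 (SE 0.16). H2AC15 (239041_at) had means of 4.27, 4.38, 4.42 and 3.97 in the 6 h controls, oligomer, 24 h control and fibril groups, with the groups overlapping in each comparison and a fibril change of −0.45 (SE 0.33, adjusted p = 0.609).

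Of the 7 H2B genes, H2BC12 (209806_at) had the smallest change between the controls. Its signals were 8.83, 8.92 and 8.79 in the 6 h controls, 9.18, 8.92 and 8.87 with oligomers, 8.91, 8.68 and 8.91 in the 24 h controls, and 9.09, 8.52 and 8.80 with fibrils. The groups overlapped in each comparison. The changes were 0.14 (SE 0.12) with oligomers (0.05 without oligomer replicate 1), −0.03 (SE 0.12) with fibrils and −0.01 (SE 0.12) between the controls.

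H2BC4 (236193_at), the divergent partner of H2AC6, had the widest changes among the H2B genes. It read 3.43, 4.18 and 3.27 in the 6 h controls, 4.42, 3.92 and 4.56 with oligomers, 4.41, 4.30 and 4.59 in the 24 h controls, and 3.36, 3.62 and 4.40 with fibrils. The oligomer and 6 h control arrays overlapped through control replicate 2, and fibril replicate 3 lay among the 24 h controls. The change was 0.68 (SE 0.38, adjusted p = 1) with oligomers and −0.64 (SE 0.38, adjusted p = 0.495) with fibrils, a difference of −1.32 (SE 0.54, adjusted p = 0.484), and 0.81 (SE 0.38, adjusted p = 0.189) between the controls. Its 6 h control mean (3.62) lay below the filter level of 3.78 and its fibril mean (3.79) just above it. The oligomer and 24 h control means were 4.30 and 4.43. With 16 added to each signal the oligomer, fibril, difference and control values were 0.33, −0.32, −0.64 and 0.40. Probe sets 208490_x_at (mean 6.14) and 208523_x_at (mean 5.31) are each annotated to 5 genes, H2BC4 and H2BC6 among them, and had smaller changes. With oligomers, with fibrils and between the controls the first differed by 0.02, 0.19 and −0.17. The second differed by 0.09, −0.23 and 0.31.

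H2BC9 (208546_x_at) read 6.64, 5.97 and 6.19 with fibrils and 6.64, 6.38 and 6.84 in the 24 h controls. The groups met at fibril replicate 1, and the change of −0.35 (SE 0.18) did not pass, with an adjusted p of 0.398, and was −0.21 without fibril replicate 2. H2BC6 (208527_x_at) read 6.68, 6.57 and 6.61 with oligomers against 6.35, 6.42 and 6.42 in the 6 h controls, a change of 0.22 (SE 0.20, adjusted p = 1) without overlap. The 24 h controls of H2BC6 spread from 6.07 to 6.90, and the fibril change was −0.26 (SE 0.20). In 208490_x_at and 208523_x_at, annotated to H2BC6 among others, the oligomer changes were 0.02 and 0.09, and the groups overlapped.

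H2BC21 (202708_s_at), on chromosome 1, had the highest of the 3 positive fibril changes, 0.29 (SE 0.20, adjusted p = 0.578), with fibril arrays at 6.09, 5.56 and 5.97 against 5.60, 5.50 and 5.65 in the controls. Fibril replicate 2 lay among the controls. H2BC5 (209911_x_at) differed by at most 0.09 in size in the 3 comparisons between groups. A second probe set of H2BC5 above the filter (222067_x_at) differed by −0.08 with fibrils and 0.17 between the controls. H2BC12L (208579_x_at) differed by −0.03 (SE 0.12) with oligomers, −0.19 (SE 0.12) with fibrils and 0.14 (SE 0.12) between the controls.

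A single gene each stood for H3 and H4. H3C6 (236278_at) had means of 4.35, 4.13, 4.25 and 4.31 in the 6 h controls, oligomer, 24 h control and fibril groups, and its changes of −0.22, 0.06 and −0.10 with oligomers, with fibrils and between the controls were each below their SE of 0.32. H4C11 (214463_x_at) read 6.91, 6.31 and 6.74 in the 6 h controls and 6.47, 6.35 and 6.23 in the 24 h controls, a change of −0.30 (SE 0.16, adjusted p = 0.256) that ran from −0.47 without control 6 h replicate 2 to −0.17 without control 6 h replicate 1. The oligomer and fibril changes of H4C11 were −0.12 and −0.07 (SE 0.16).

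**Figure D3:**
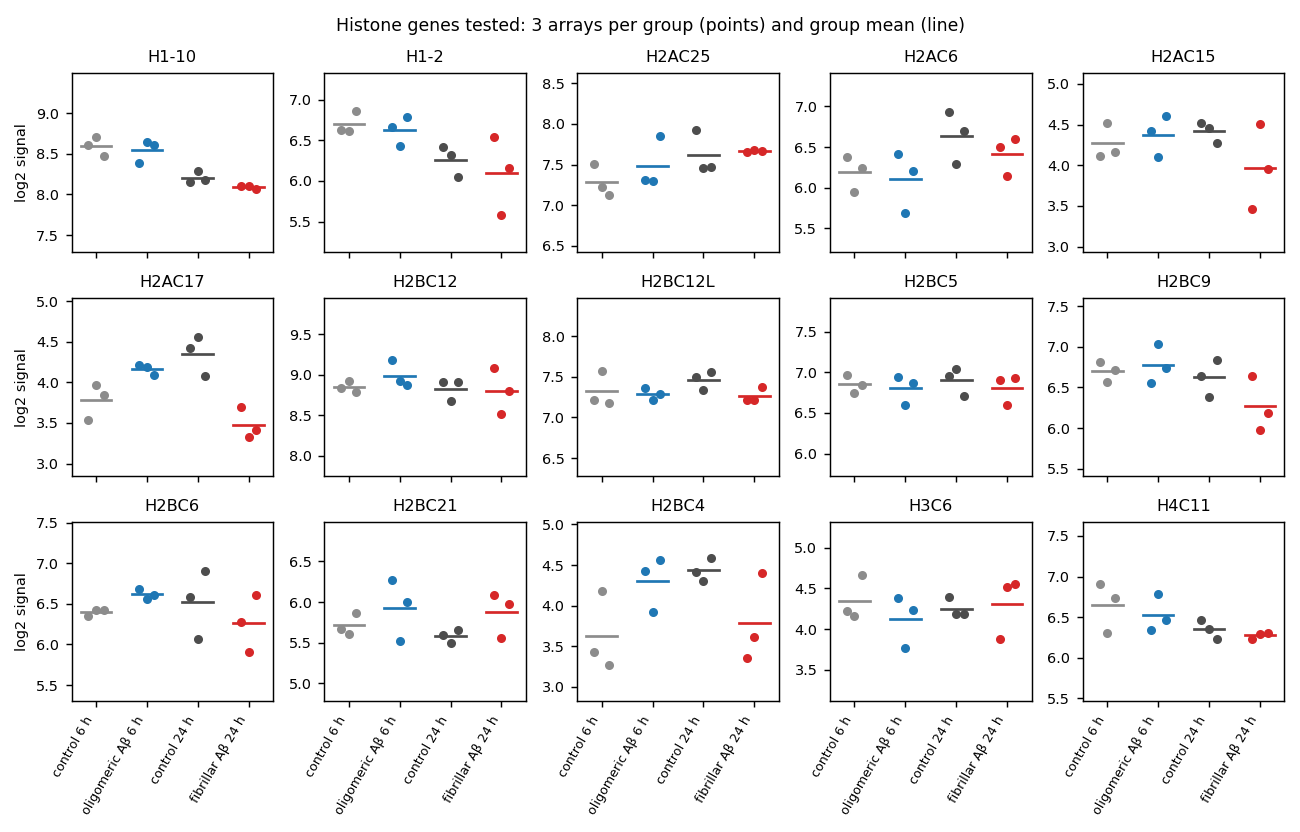
The log2 signal (y axis) of the 15 tested histone genes in the 4 groups, with 3 arrays a group as points and the group mean as a line. H1-10 steps down from 6 h to 24 h, where the control means are 8.60 and 8.21, and H2AC17 is highest in the 24 h controls at a mean of 4.35 and lowest with fibrils at 3.48.

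Many histone probe sets are annotated to several genes at once, because their coding sequences are nearly the same, and these fell outside the single-symbol rule. Of 20 such probe sets, 10 passed the filter. All 27307 probe sets above it were therefore fitted together, a fit chosen after the data were seen, in which 0% of probe sets passed with oligomers, 0.575% with fibrils, 0.0366% for the difference and 8.52% between the controls. Of the 10 shared histone probe sets, 0 passed with oligomers, with fibrils or for the difference by limma, and in each of these 0 had an unadjusted p below 0.05. Between the controls 1 passed.

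That probe set, 205967_at, is annotated to 14 H4 genes. It read 13.47, 13.36 and 13.21 in the 6 h controls and 12.92, 12.89 and 12.37 in the 24 h controls, with no overlap. H4 signal by this probe set fell by 0.62 (SE 0.13, adjusted p = 0.00722 with limma) between the control groups, in which control 24 h replicate 3 was the lowest array, and without that array the change was −0.44 (adjusted p = 0.0292). It passed in 19 of 20 alternatives and had an adjusted p of 0.0561 with a constant prior variance. With oligomers it read 13.11, 13.44 and 13.50, and with fibrils 12.86, 13.04 and 12.89, a change of 0.20 (adjusted p = 0.535). Of the other 4 probe sets annotated to 14 H4 genes, 1 passed the filter. It was 208580_x_at, which differed by −0.41 (SE 0.19, adjusted p = 0.195) between the controls, with 5.72, 6.20 and 6.25 at 6 h and 5.65, 5.62 and 5.66 at 24 h. The remaining 3 lay below the filter and were not tested, with control means at 6 h and 24 h of 3.30 and 3.79 (207046_at), 3.07 and 1.73 (208181_at) and 2.39 and 3.90 (214516_at), the last higher at 24 h without overlap. Which of the H4 genes gave these signals cannot be told from the probe sets.

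**Figure D4:**
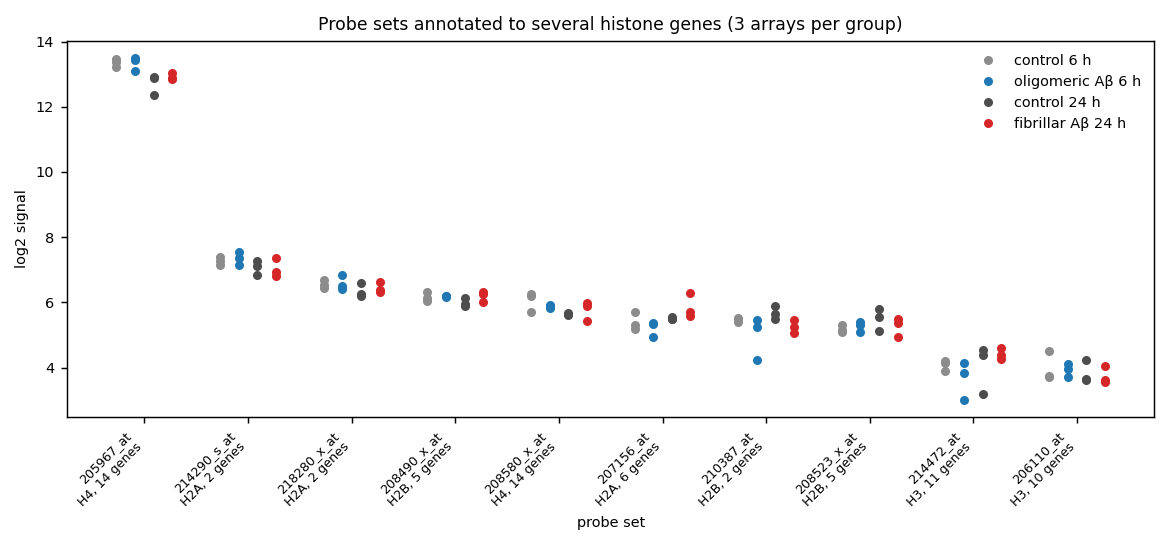
The log2 signal (y axis) of the 10 probe sets above the filter that are annotated to several histone genes (x axis, with the histone type and the number of genes), 3 arrays a group as points. In 205967_at the 24 h controls, at 12.37 to 12.92, lie below the 6 h controls, at 13.21 to 13.47, and probe sets are ordered by their mean for display only.

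Without the filter, all 50 members could be fitted together with the 19775 genes. Of the 50, 0 passed with oligomers, with fibrils and for the difference, where 0%, 0.399% and 0.0253% of genes did. An unadjusted p below 0.05 was found for 3, 1 and 3 of them, and for 5 between the controls. The share of all genes with such a p was not counted in this fit, so these counts cannot be weighed. H1-10 alone passed between the controls, where 5.55% of genes did. The 35 members below the filter had changes from −1.92 to 2.68 with oligomers, −2.24 to 1.76 with fibrils and −1.88 to 2.59 between the controls, with a median SE of 1.03. At that error only very wide changes could have passed.

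The genes that make, process and handle histones gave a context for these values. Of 13 tested genes of histone transcription and S phase entry, 0 passed with oligomers or fibrils, where 0% and 1.19% of all genes did. Between the controls 2 fell, where 11.7% of all genes passed and 7.92% fell. These were CDK2, the kinase of S phase entry, by 0.41 (SE 0.09, adjusted p = 0.00684), and CCNA2, its cyclin A partner, by 0.31 (SE 0.09, adjusted p = 0.026). With the mean of its probe sets the CDK2 change was −0.13 with an adjusted p of 0.632. The CCNA2 call was lost without control 6 h replicate 1 or 2 or control 24 h replicate 1 or 3, with changes from −0.31 to −0.26 and adjusted p up to 0.122. NPAT differed by 0.03 with oligomers, 0.07 with fibrils and −0.02 between the controls (SE 0.12).

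Of 22 tested genes of histone message 3′ end processing and decay, 0 passed with oligomers or fibrils, where 0% and 1.19% of all genes did. Between the controls 3 fell, where 7.92% of all genes did. SRRT, which links the cap-binding complex to RNA processing, fell by 0.49 (SE 0.07, adjusted p = 0.000363), while the value was −0.16 with an adjusted p of 0.815 in its probe set without the cross-hybridization mark. EXOSC10, a nuclease of the nuclear exosome, fell by 0.80 (SE 0.19, adjusted p = 0.012), with −0.59 and an adjusted p of 0.0705 without control 6 h replicate 2. UPF1, a helicase of message decay, fell by 0.51 (SE 0.13, adjusted p = 0.0192), but by the mean of its probe sets it differed by −0.02. Its call was lost without control 6 h replicate 1 (−0.39, adjusted p = 0.0945) or control 24 h replicate 3 (−0.44, adjusted p = 0.0858). SLBP, the stem-loop binding protein, read between 9.98 and 10.22 over the 12 arrays and differed by 0.02, 0.03 and −0.02 in the oligomer, fibril and control comparisons (SE 0.07).

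Of 27 tested histone chaperones and importers, 0 passed with oligomers and 1 fell with fibrils, where 1.19% of all genes passed. It was HIRA, a chaperone that deposits the replacement histone H3.3 independently of DNA synthesis. HIRA read 8.32, 7.31 and 6.83 in the fibril arrays and 8.42, 8.69 and 8.60 in the 24 h controls. It fell by 1.09 (SE 0.25, adjusted p = 0.0456), the groups did not overlap, and the call was kept in 8 of 23 alternative settings. With the replicate number as a block in limma the adjusted p was 0.0563. Without fibril replicate 3 the change was −0.76 with an adjusted p of 0.205 and without fibril replicate 2 it was −0.997 with 0.0892. Without control 24 h replicate 1, 2 or 3 the adjusted p was 0.136, 0.113 or 0.139, and without oligomer replicate 2 or control 6 h replicate 1, 2 or 3, which enter only the shared spread, it was 0.059, 0.0697, 0.0587 or 0.056. The fibril less oligomer difference of HIRA was −1.08 (SE 0.35, adjusted p = 0.334), which did not pass.

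Between the controls 4 of the 27 chaperone genes fell and 2 rose, where 7.92% of all genes fell and 11.7% passed. HJURP, which loads the centromeric H3 variant, fell by 0.77 (SE 0.10, adjusted p = 0.000295). SSRP1, a subunit of the FACT complex that moves H2A-H2B dimers, fell by 0.65 (SE 0.10, adjusted p = 0.000553). SUPT16H, the other FACT subunit, fell by 0.35 by its brightest probe set (adjusted p = 0.00223), while the mean of its probe sets rose by 0.62 (adjusted p = 0.0333), so its probe sets disagree. NAP1L1, a carrier of H2A-H2B, and ATRX, a remodeller that works with DAXX on H3.3, rose by 0.23 (adjusted p = 0.0283) and 0.26 (adjusted p = 0.0408), but each passed in only 14 alternatives, of 24 and 23. The NAP1L1 change was 0.01 in a probe set without the cross-hybridization mark. With an array left out NAP1L1 had changes from 0.20 to 0.28, and was not called without any of the 6 h controls or without control 24 h replicate 2 or 3 (adjusted p up to 0.115). ATRX had changes from 0.21 to 0.30 and was not called without any single control array (adjusted p up to 0.175).

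Of 7 tested replacement and variant histones outside the rule, 0 passed with oligomers or fibrils, where 0% and 1.19% of all genes did. Between the controls 2 fell, where 7.92% of all genes fell and 11.7% passed. H2AX, the H2A variant phosphorylated at DNA breaks, read 10.81, 10.76 and 10.57 at 6 h and 9.96, 9.97 and 9.71 at 24 h and fell by 0.84 (SE 0.11, adjusted p = 0.000199). By the mean of its probe sets the change of H2AX was −0.31 with an adjusted p of 0.222. MACROH2A2, a large variant found in silent chromatin, fell by 0.48 (SE 0.11, adjusted p = 0.00968).

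Of 38 tested DNA replication genes, 0 passed with oligomers or fibrils, where 0% and 1.19% of all genes did. Between the controls 9 fell and 1 rose, where 7.92% of all genes fell and 11.7% passed. The median change of the 38 genes between the controls was −0.21, against −0.0163 for all genes. MCM5, MCM7 and MCM3, subunits of the replicative helicase, fell by 1.29 (SE 0.16), 0.49 (SE 0.07) and 0.54 (SE 0.09). GINS4, of the GINS complex of the same helicase, rose by 1.37 (SE 0.31, adjusted p = 0.00848), with 0.43 and an adjusted p of 0.442 by the mean of its probe sets. Over the same arrays the tested histone members had a median change of 0.05, and the difference between these medians was not tested.

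Array measures moved with time beside these values. The median deviation of the replication genes from their own means was 0.06 to 0.20 in the 6 h controls and −0.22 to 0.08 in the 24 h controls, and replicate 2 was the highest array of each of the 4 groups. For the histone members it was −0.04 to −0.02 in the 6 h controls, −0.12 to 0.15 with oligomers, −0.07 to 0.13 in the 24 h controls and −0.24 to 0.04 with fibrils, so the groups overlapped. The 18S ribosomal RNA probe set read 9.31 to 10.66 in the 6 h arrays and 11.41 to 11.85 in the 24 h arrays. The GAPDH 3′ less 5′ value was 0.80 ± 0.03 in the 6 h controls and 0.50 ± 0.02 in the 24 h controls (SD, n = 3), and its part, like that of 18S, in the H1-10 and H4 changes was not tested. Array medians were 3.89 to 4.12. Of 6 measured noradrenergic neuroblastoma markers 5 were above the filter, with TH at 0.73 below it, as were 5 of 6 mesenchymal, 1 of 4 epithelial (EPCAM, mean 4.53), 0 of 3 blood and 0 of 3 glial markers.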

How the data were processed

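The values, as deposited, are log2 signals of probe sets, which the authors computed by MAS5 per the submitters' processing notes (version not given in the sources used here). No normalization was added. Of 54675 probe sets, 62 were controls, 41091 had 1 gene symbol, 1801 several and 11721 none. Those with a mean at or above the median (log2 3.78) were kept, the brightest single-symbol one was taken per gene, and 11774 genes were fitted with limma (version 3.58.1; R 4.3.3 with the data.table package, 1.17.8). Group means over all 12 arrays were modelled, with the prior variance allowed to follow the level. Genes with an adjusted p under 0.05 (Benjamini-Hochberg over all genes) were called. The script was tested on simulated data. With 3 arrays a group, their number sets the precision.

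The members, gene lists and tests were chosen with earlier results of these data known. Named were the 3 brightest members of each type, every called member, the 3 members with the smallest p per direction and comparison, up to 3 called genes per list and direction, and SLBP, NPAT and HIRA; the other members were added for completeness. The alternatives were quantile normalization, median centring, log2 of the signal plus 16, an unfiltered table, a filter at percentile 75, other choices of probe set and prior variance, array weights, fits of only the groups compared, the replicate number as a block, and each array left out. Same-numbered arrays had correlations of deviations from −0.02 to 0.09, and the labels name no pairs, so the numbers were not treated as pairs in the main fit. Of the 9 same-numbered pairs 8 were positive, against 3 of 18 differently numbered pairs. The deviations of a group sum to 0, so a positive same-numbered value pushes the others below 0. These counts are therefore not independent. In 15 of 18 comparisons an array correlated best with its own number, so pairing is not excluded, and the fit with a block stands among the alternatives.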

Additional observations from a re-analysis of the deposited data

Results flagged for a closer look

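By its single-symbol probe set, H2AC17 was the 1 tested histone gene whose responses to the preparations pointed in opposite directions with every array. The oligomer arrays lay above the 6 h controls and the fibril arrays below the 24 h controls. A probe set annotated to 6 genes, H2AC17 among them (207156_at, mean 5.50), had the opposite signs. It differed by −0.19 with oligomers and 0.34 with fibrils (SE 0.22), and neither passed. Of all genes tested, 7.36% did not overlap with oligomers and 19.7% with fibrils, and the share apart in opposite directions was not counted. The 6 h control mean (3.781) and fibril mean (3.478) of H2AC17 lay below the filter level of 3.782. The fibril response less the oligomer response was −1.26 on the log2 scale (SE 0.47). The difference itself was tested in limma and did not pass (adjusted p = 0.44), and over the alternatives its adjusted p ran from 0.213 to 0.678 and the difference from −1.39 to −0.61, the latter with 16 added to each signal.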

How the results depend on the processing

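With limma, 0 members were called with oligomers, with fibrils or for the difference of the responses in each alternative that was run. Between the controls of 24 h and 6 h, H1-10 was called in the main fit. With probe sets free of the cross-hybridization mark 0 members were called, against 9.59% of all genes. H1-10 has no such probe set above the filter. With a constant prior variance 2 members were called, H1-10 and H2AC17, where 8.03% of all genes were. With the replicate number as a block 2 members were called, H1-10 and H2AC6, where 13.3% of all genes were. The H2AC6 change was 0.45 with an adjusted p of 0.042 in that limma fit. Leaving out an array in turn gave 0 to 1 members called. H1-10 was called in 22 of 23 alternatives, with adjusted p from 0.00374 to 0.061. The replicate block changed no other count of called members, and with it HIRA missed the threshold with fibrils (adjusted p = 0.0563). Of the 9 same-numbered pairs of arrays 8 had positively correlated deviations, against 3 of 18 differently numbered pairs. In 15 of 18 comparisons an array correlated best with its own number. These counts are not independent, because the deviations of a group sum to 0, and they are a hint from the data and not from the design.

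Median centring moved the members' median to −0.079 between the controls and to −0.010 for the difference, as it moved all genes to −0.15 and 0.15. With an array left out, the medians ran from −0.0079 to 0.12 with oligomers, −0.20 to −0.08 with fibrils, −0.23 to −0.07 for the difference and −0.05 to 0.07 between the controls.

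Of the 60 changes of the 15 members, 25 crossed 0 with an array left out, none of them called. With oligomers they were H1-10 (−0.11 to 0.028), H1-2 (−0.16 to 0.023), H2AC15 (−0.0079 to 0.25), H2AC6 (−0.24 to 0.12), H2BC12L (−0.11 to 0.091), H2BC5 (−0.12 to 0.055), H2BC9 (−0.055 to 0.19) and H4C11 (−0.29 to 0.0096). With fibrils they were H1-2 (−0.39 to 0.088), H2AC25 (−0.029 to 0.20), H2BC12 (−0.17 to 0.11), H2BC5 (−0.19 to 0.015) and H3C6 (−0.057 to 0.28). For the difference they were H1-10 (−0.14 to 0.0039), H1-2 (−0.31 to 0.17), H2AC25 (−0.26 to 0.035), H2AC6 (−0.35 to 0.014), H2BC21 (−0.13 to 0.24), H2BC5 (−0.14 to 0.065) and H4C11 (−0.079 to 0.22). Between the controls they were H2BC12 (−0.052 to 0.060), H2BC5 (−0.019 to 0.15), H2BC6 (−0.070 to 0.35), H2BC9 (−0.19 to 0.042) and H3C6 (−0.19 to 0.061).

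Median centring turned the difference of H1-10 (0.079), H1-2 (0.050) and H2BC5 (0.098), the fibril change of H2BC12 (0.046) and H4C11 (0.0038), and the control change of H2BC5 (−0.079) and H2BC6 (−0.0084). Array weights turned the control change of H2BC12 (0.0053) and the difference of H2BC5 (0.064). The SUPT16H change between the controls turned to 0.62 (adjusted p = 0.0333) with the mean of its probe sets. The compared groups alone could not be run for the difference, which needs all 4 groups. Depth is not defined for arrays, and the 35 members below the filter had a median SE of 1.03, which limits what could be seen of them.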
